A study of Gallus gallus with 8 samples.

Results

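The mitochondrial genome of the chick was read through 37 of the 17778 rows of the deposited tables, namely every row placed on the mitochondrial chromosome. Of these, 13 carry the names of proteins, 2 are long rows of 976 and 1621 bases, and 22 are short. The RefSeq gene table of assembly GRCg7b lists 13 protein, 2 rRNA and 22 tRNA genes on this chromosome, and the kinds follow one another in the same order as in the deposited rows. Lengths differed by at most 5 bases from that table in 36 of the 37 rows. The rows that carry only identifiers are therefore called rRNA and tRNA rows here, and the tRNA rows are numbered 1 to 22 from the start of the chromosome, since no source used here names them.

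The libraries came from 8 pools of dissected chick (Gallus gallus) embryo tissue, 1 library per pool, with no genotype, strain or treatment given in the labels. The heart is represented by 4 of them: the developing sinoatrial node, the left atrium, the ventricular apex, and the junction between atria and ventricles at Hamburger-Hamilton (HH) stages 17 to 18. For the other 3 heart libraries no stage is stated. The remaining 4 are lateral plate mesoderm at HH stage 8, taken from the field where pacemaker progenitors lie and from anterior, left and posterior positions. How many embryos were pooled was not given. Because every group is a single library, the spread between replicates is unknown and p-values are not given. The 95% intervals (exact Clopper-Pearson) reflect counting alone, and since PCR can copy a molecule before it is sequenced, the true error is wider.

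Mitochondrial DNA is a small circle that encodes a few subunits of the respiratory chain, along with the rRNAs and tRNAs that translate them inside the organelle. All other subunits come from nuclear genes. Both strands are transcribed into long precursors that are cut at the tRNAs between the genes, and the messenger RNAs are then polyadenylated. Heart muscle is rich in mitochondria, and its embryonic precursors are thought to rely more on glycolysis. In human cells ND6, the one protein encoded on the other strand, is known for having no stable poly(A) tail, and the rRNAs carry short tails. The libraries were made from polyadenylated RNA, per the labels' protocols.

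Counts assigned to genes ran from 10258697 to 17189803 per library, and the mitochondrial rows alone held 1225254 to 2703743. The lowest count of any row in any library was 46, so no row was absent. All 12 matched heart muscle genes were called higher in the heart libraries; they summed to 22421 to 26476 CPM in the heart and 986 to 1588 in the mesoderm. Erythroid genes, mostly globins, summed to 15009.5 to 39859 CPM in the heart and 46.01 to 78.02 in the mesoderm. Endothelial genes summed to 171 to 318 CPM in the heart and 91.8 to 115 in the mesoderm. Lateral plate genes summed to 995 to 2567 CPM in the heart and 1298 to 2191 in the mesoderm, so their sums overlapped. After TMM scaling, 2 of the 8 matched lateral plate genes lay above and 3 below the mesoderm without overlap, and 1 was called higher and 1 lower. Of all expressed genes, 25.6% lay above and 25.6% below, and 5.62% were called higher and 2.53% lower. Endoderm and liver genes summed to 108 to 1500.3 CPM in the heart and 791 to 971 in the mesoderm. Of paraxial mesoderm genes 2 were matched and 1 was expressed, with a sum of 0 to 0.592 CPM in the heart and 3.48 to 8.83 in the mesoderm. Of neural ectoderm genes 3 were matched, with a sum of 97.7 to 165 CPM in the heart and 35.6 to 54.4 in the mesoderm. Only 1 of these 3 was expressed, so the sum rests mainly on that gene. It was called higher in the heart, while 1 other lay below the mesoderm without overlap.

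The mitochondrial rows took 10.5% to 19.4% of all counts. Their share was 11.4% in the node, 15.7% in the atrium, 11.9% in the ventricle and 19.4% in the junction. In the mesoderm it was 10.5% in the pacemaker field and 15.3%, 12.7% and 11.6% in the anterior, left and posterior mesoderm. The junction was highest, followed by the atrium and the anterior mesoderm, and the pacemaker field was lowest, so heart and mesoderm did not separate. The 13 protein rows supplied most of this: 8.58% in the node, 11.7% in the atrium, 6.78% in the ventricle and 14.7% in the junction. Their share was 7.69% in the pacemaker field and 11.00%, 9.74% and 8.50% in the anterior, left and posterior mesoderm. The 2 rRNA rows took 2.26% in the node, 3.23% in the atrium, 4.68% in the ventricle and 3.66% in the junction. In the mesoderm they took 2.33% in the pacemaker field and 3.58%, 2.37% and 2.59% in the anterior, left and posterior mesoderm. Here the ventricle was the highest, while its protein share was the lowest by total counts. After TMM scaling the pacemaker field had the lowest protein share, 6.70%, and the ventricle 7.55%. The 22 tRNA rows together held 0.449% to 1.01%, with the pacemaker field lowest and the junction highest. Intervals for counting error were narrow, for example 19.38 to 19.42% for all rows in the junction and 10.45 to 10.48% in the pacemaker field. A share of the counts in a dissected pool cannot tell more mitochondrial RNA per cell from more cells that are rich in it.

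**Figure D1:**
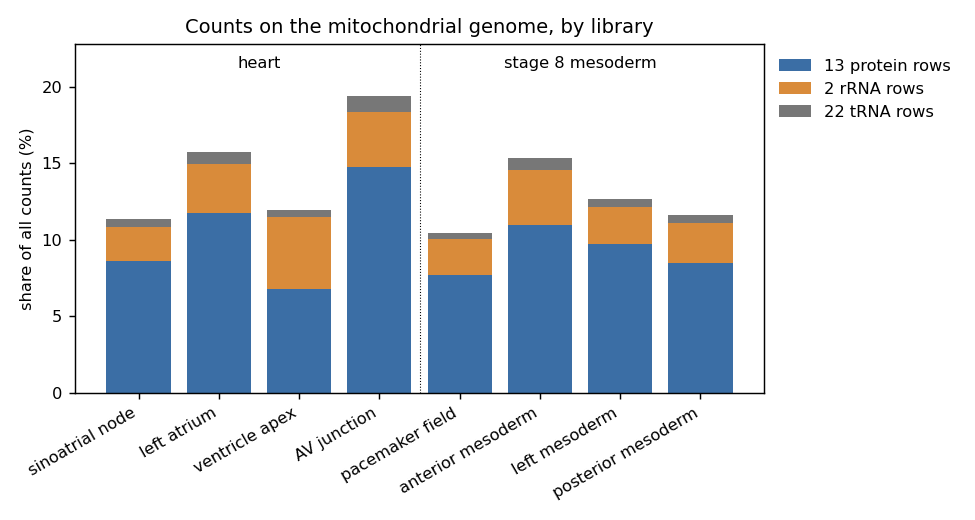
Share of all counts on the mitochondrial genome (y axis, percent) in each of the 8 libraries (x axis), stacked by protein, rRNA and tRNA rows. The junction reaches 19.4% and the pacemaker field 10.5%, and the rRNA part is largest in the ventricle at 4.68%.

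Levels of different genes were compared as CPM (counts scaled to the same total in every library) per kilobase of the row. ND6, a subunit of complex I, was first among the 13 protein rows in all 8 libraries, at 23049 to 49289 CPM per kilobase. ND3, a small membrane subunit of complex I, ranged from 10137 to 33289 and was at rank 2 or 3. ATP8 and ATP6, subunits of the proton channel of ATP synthase, and COX1, COX2 and COX3, the catalytic core of cytochrome c oxidase, formed a middle group with means of 9891 to 11330.2 CPM per kilobase. ND1 was at rank 8 in every library. CYTB, the mitochondrial subunit of complex III, and ND4L, ND5, ND4 and ND2 stood lowest, with means of 3659.9 to 5340.1. The spread among protein rows was wide: the mean of ND6 was 31816 CPM per kilobase, that of ND2 3659.9. The long rRNA row lay between ND3 and ATP8, with a mean of 16815, and the short rRNA row, at 3719, was near ND2.

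ND6 is the only protein row on the minus strand, from 16184 to 16705 on chromosome M in the coordinates of the files, for which no genome build is stated. It held 15162 in the node, 19915 in the atrium, 12032 in the ventricle and 25729 in the junction (CPM). The mesoderm held 12297 in the pacemaker field and 18753, 14812 and 14162 in the anterior, left and posterior mesoderm. Whether counting used strand was not given, and without strand, reads from ND6 and from RNA of the opposite strand over the same bases cannot be told apart, so these values are counts over the place of ND6 and may not be its messenger. Per 100 counts of CYTB, the nearest protein row, which is read from the plus strand, there were 274 in the node, 292 in the atrium, 342 in the ventricle and 323 in the junction. In the mesoderm there were 245 in the pacemaker field and 253, 219.9 and 244 in the anterior, left and posterior mesoderm. The 4 heart libraries lay above the 4 mesoderm libraries in this ratio. As a share of the protein counts ND6 itself overlapped, at 16.98% to 17.7% in the heart and 15.2% to 17.05% in the mesoderm. CYTB, the row divided by, was lower in every heart library, at 5.18% to 6.45% against 6.54% to 6.92%.

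**Figure D2:**
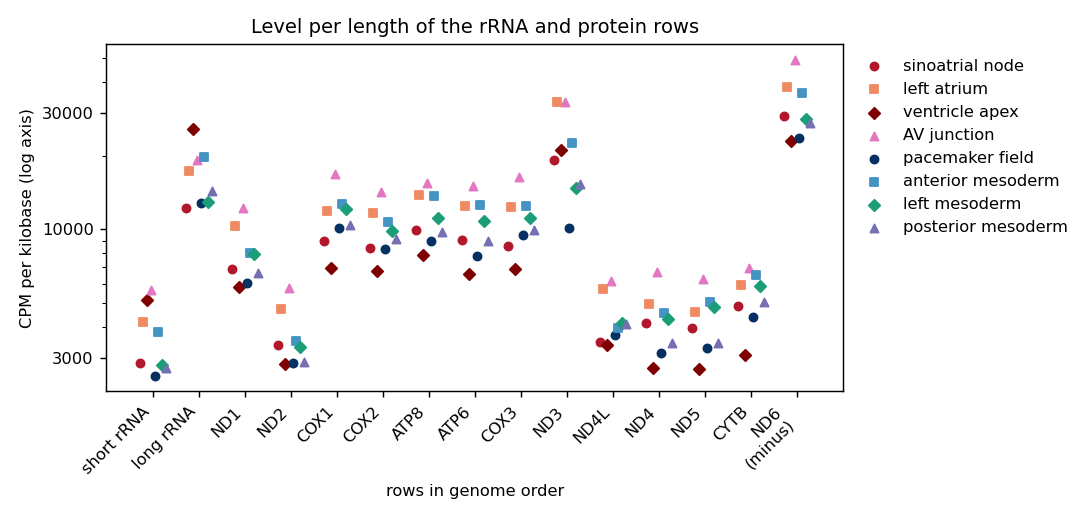
CPM per kilobase (y axis, log scale) of the 2 rRNA and 13 protein rows in genome order (x axis), 1 point per library. ND6 is the highest protein row in every library and spans 23049 to 49289; the long rRNA row is highest in the ventricle.

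The protein rows shared their highest and, with 1 exception, their lowest library. In CPM all 13 were highest in the junction, and 12 were lowest in the ventricle, the exception being ND3, which was lowest in the pacemaker field. Among complex I subunits, which pass electrons from NADH to ubiquinone, ND1 ranged over 5702 to 11940.1 CPM, ND2 over 2936 to 6022 CPM, ND4L over 999 to 1835 CPM, ND4 over 3742 to 9282 CPM and ND5 over 4882 to 11439 CPM. For complex IV, COX2 ranged over 4609.6 to 9766 CPM and COX3 over 5404 to 12851 CPM. The ATP synthase rows ATP8 and ATP6 ranged over 1293 to 2547 CPM and 4518 to 10254 CPM. They overlap by 10 bases, as ND4L and ND4 do by 7, so a few reads may be counted for either. The highest library over the lowest was 1.84 for ND4L and 2.48 for ND4, the extremes apart from ND3. ND3 had the widest range, 3.28. With TMM scaling (the trimmed mean of M values, which sets libraries level on the bulk of genes) the junction was highest for 12 of 13 rows and the pacemaker field lowest for 10.

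ND3 varied most of the protein rows. It held 6767 in the node, 11646 in the atrium, 7426 in the ventricle and 11684 in the junction (CPM). The mesoderm held 3558 in the pacemaker field and 7928, 5178 and 5379.9 in the anterior, left and posterior mesoderm. The atrium and the junction were highest and nearly equal, while the pacemaker field was lowest. As a share of the counts of all 13 protein rows, which does not depend on scaling between libraries, ND3 made up 7.88% in the node, 9.93% in the atrium, 10.9% in the ventricle and 7.93% in the junction. The mesoderm gave 4.63% in the pacemaker field and 7.21%, 5.32% and 6.33% in the anterior, left and posterior mesoderm. Every heart library was above every mesoderm library. The closest pair was the node with an interval of 7.83 to 7.93% and the anterior mesoderm with 7.16 to 7.25%. The geometric mean over the heart was 1.57 times that over the mesoderm. The separation depended on the rows divided by. Per 100 counts of COX3, the protein row before it, ND3 had 90.9 to 137 in the heart and 47.6 to 80.5 in the mesoderm. Per 100 counts of ND4L, the protein row after it, the classes overlapped, at 637 to 743 in the heart and 322 to 675 in the mesoderm. There the anterior mesoderm, at 675, was above the node, at 657, and the junction, at 637. ND3 lies from 10776 to 11126, between tRNA rows 15 and 16, and overlaps no other row.

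Of the 13 protein rows, 5 had shares of the protein counts that did not overlap between heart and mesoderm. Of these, 2 (15.4% of 13) were higher in the heart and 3 (23.1%) higher in the mesoderm. No such share was computed for other genes. In TMM-scaled CPM, another measure, 25.6% of expressed genes lay above and 25.6% below without overlap, and none of the 13 rows did. The shares of the protein rows sum to 100% in a library, so a higher share of 1 row lowers the others. ND2, the other row higher in the heart, made up 4.09% to 4.33% in the heart and 3.30% to 3.86% in the mesoderm. COX1, which holds the oxygen-reducing site of complex IV, made up 16.2% in the node, 15.8% in the atrium, 15.9% in the ventricle and 17.6% in the junction. In the mesoderm its share was 20.5% in the pacemaker field and 17.9%, 19.2% and 18.98% in the anterior, left and posterior mesoderm. The junction, highest of the heart libraries, came near the anterior mesoderm, lowest of the other class. COX3 made up 7.84% to 8.73% in the heart and 8.96% to 9.73% in the mesoderm. CYTB made up 6.45% in the node, 5.81% in the atrium, 5.18% in the ventricle and 5.41% in the junction. Mesoderm shares were 6.54% in the pacemaker field and 6.75%, 6.92% and 6.82% in the anterior, left and posterior mesoderm. The ventricle was lowest for CYTB and the node came close to the mesoderm. The remaining 8 rows overlapped, such as ND5 at 7.11% to 8.37% in the heart and 7.37% to 9.04% in the mesoderm.

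Summed by complex, the 7 complex I rows made up 52.9% to 55.6% in the heart and 46.99% to 49.9% in the mesoderm, without overlap. This sum includes ND6, at 15.2% to 17.7% of the protein counts, whose counts may not be its messenger. The shares of the complexes without ND6 were not computed. The 3 complex IV rows made up 30.7% to 32.98% in the heart and 33.5% to 37.6% in the mesoderm, also without overlap, and CYTB is the sole row of complex III. The 2 ATP synthase rows of complex V overlapped, at 8.57% to 9.20% in the heart and 8.85% to 9.87% in the mesoderm. In the ventricle complex I reached its highest share, 55.6%, and in the pacemaker field its lowest, 46.99%, where complex IV was highest at 37.6%.

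**Figure D3:**
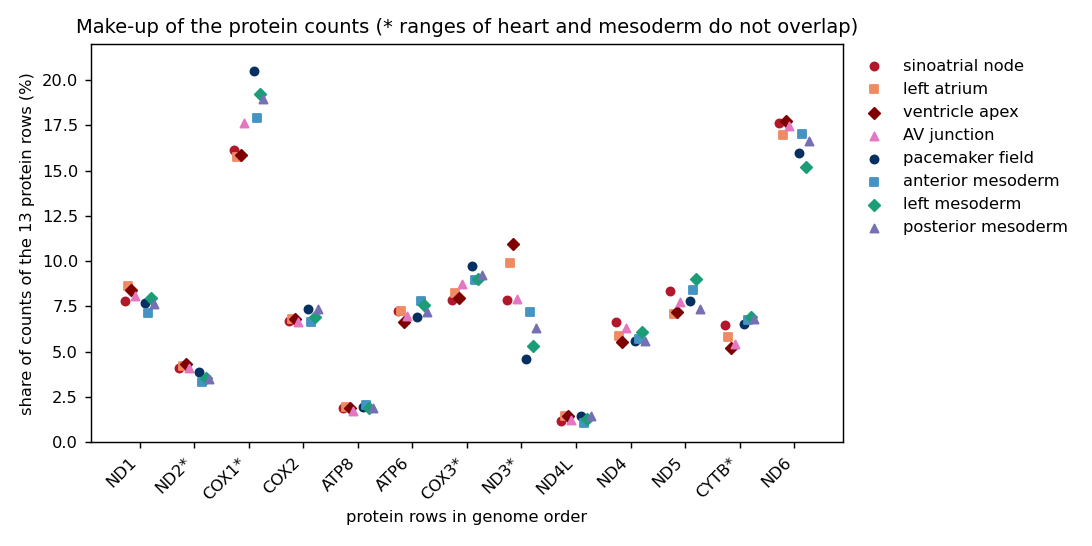
Share of the counts of the 13 protein rows (y axis, percent) taken by each row (x axis, genome order), 1 point per library, heart to the left and mesoderm to the right of each position. ND3 runs from 4.63% in the pacemaker field to 10.9% in the ventricle, and a star marks the 5 rows whose ranges do not overlap.

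The ratio of rRNA to protein counts set the ventricle library apart. The long rRNA row, the large-subunit rRNA by its place before ND1 (from 2346 to 3966, plus strand), held 19832 in the node, 28194 in the atrium, 41715 in the ventricle and 31042 in the junction (CPM). The mesoderm held 20851 in the pacemaker field and 32139, 21016 and 23264 in the anterior, left and posterior mesoderm. The short rRNA row, of the small subunit (from 1297 to 2272, plus strand), held 2794 in the node, 4081 in the atrium, 5042 in the ventricle and 5548 in the junction. Mesoderm values were 2469 in the pacemaker field and 3709, 2727 and 2665 in the anterior, left and posterior mesoderm. The ventricle was highest for the long row and the junction for the short row. The number of rRNA counts per 100 counts of the protein rows was 26.4 in the node, 27.5 in the atrium, 68.9 in the ventricle and 24.8 in the junction. The mesoderm had 30.3 in the pacemaker field and 32.6, 24.4 and 30.5 in the anterior, left and posterior mesoderm. The ventricle's ratio (interval 68.7 to 69.2) was 2.11 times that of the anterior mesoderm, the next highest, while the other 7 libraries lay within 24.4 to 32.6. Both parts of the ratio differed. By total counts the ventricle's rRNA sum was 1.30-fold that of the anterior mesoderm, and its protein sum 0.617-fold. Per 100 counts of the long row the short row had 14.1 in the node, 14.5 in the atrium, 12.1 in the ventricle and 17.9 in the junction. In the mesoderm this was 11.8 in the pacemaker field and 11.5, 12.98 and 11.5 in the anterior, left and posterior mesoderm. The junction was highest here, and the ventricle was within the range of the mesoderm. The rRNA share of mitochondrial counts was 39.1% in the ventricle and 18.7% to 23.4% in the other libraries. The ventricle was also the shallowest library, at 10258697 counts, close to the posterior mesoderm at 10757964 and the anterior mesoderm at 10837246. The part of depth in the ratio was not tested.

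The tRNA counts came mainly from 1 row. tRNA row 12 lies on the minus strand from 8124 to 8258, spans 135 bases against 75 in the RefSeq table, and shares 69 bases with the 3′ end of COX1 on the other strand. It held 3754 in the node, 5505 in the atrium, 3358 in the ventricle and 7393 in the junction (CPM). The mesoderm held 3024 in the pacemaker field and 5269, 3739.9 and 3709 in the anterior, left and posterior mesoderm. This was 67.4% to 73.1% of all tRNA counts. Whether counting used strand was not given, and without strand, reads of COX1 cannot be told apart from reads of the tRNA there. Per 100 COX1 counts tRNA row 12 had 27.1 in the node, 29.8 in the atrium, 31.2 in the ventricle and 28.5 in the junction. The mesoderm had 19.2 in the pacemaker field and 26.7, 19.97 and 22.98 in the anterior, left and posterior mesoderm. The lowest heart library, the node, was barely above the anterior mesoderm. COX1, the row divided by, had a lower share of the protein counts in every heart library, at 15.8% to 17.6% against 17.9% to 20.5%. In CPM tRNA row 12 itself overlapped between heart and mesoderm. As a share of the tRNA counts it also overlapped, at 69.4% to 73.1% in the heart and 67.4% to 70.8% in the mesoderm. The other 21 tRNA rows overlap another row by at most 3 bases and ranged from 2.86 to 784 CPM. Together they took 0.146% to 0.272% of all counts. Their median level per length, 916 CPM per kilobase, was below that of every protein row. Mature tRNAs are short and carry no poly(A) tail.

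Among those 21, the highest were rows 5, 4 and 2. Row 5, on the minus strand between ND1 and ND2 (from 5102 to 5172), held 396 in the node, 676 in the atrium, 326 in the ventricle and 784 in the junction (CPM). In the mesoderm it held 464 in the pacemaker field and 682, 574 and 557 in the anterior, left and posterior mesoderm. Row 4, directly after ND1 (from 5025 to 5096), ranged over 146 to 446 CPM, lowest in the ventricle and highest in the junction. Row 2, between the rRNA rows (from 2273 to 2345), went the way of the long rRNA row, with 106 in the node, 157 in the atrium, 213 in the ventricle and 166 in the junction. Its mesoderm values were 107 in the pacemaker field and 178, 115 and 102 in the anterior, left and posterior mesoderm. The ventricle was its highest library. tRNA row 1, the first of the chromosome, was the lowest of all 37 rows at 2.86 to 7.40 CPM. The 4 minus-strand tRNA rows in a run between ND2 and COX1 were also low, with row 11 (from 6573 to 6643) at 22.3 in the node, 22.2 in the atrium, 10.8 in the ventricle and 25.5 in the junction. In the mesoderm it was at 8.63 in the pacemaker field and 12.2, 12.1 and 10.5 in the anterior, left and posterior mesoderm. Per 100000 protein counts these 4 rows had 86.99 in the node, 65.6 in the atrium, 62.6 in the ventricle and 55.5 in the junction. The mesoderm had 38.8 in the pacemaker field and 44.5, 57.02 and 42.7 in the anterior, left and posterior mesoderm. The node was highest, and the left mesoderm overlapped the heart.

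Between heart and mesoderm no mitochondrial row passed the threshold for a called difference. A gene was called when its CPM + 1 after TMM scaling was 2-fold or more away from that of each library of the other class, every library on the higher side held 5 CPM or more, and the 95% interval of each ratio of counts excluded 1. By that rule 5.62% of 10454 expressed genes were higher and 2.53% lower in the heart, which is 587 and 265 genes, or 433 and 472 with scaling by total counts. Of the 37 rows, 5 lay above the mesoderm in all 4 heart libraries without overlap, against 25.6% of expressed genes, and none lay below, against 25.6%. These 5 are tRNA rows 9, 10, 11, 13 and 22, and none of them separated when total counts were used, against 15.8% of expressed genes higher and 39.7% lower. The median log2 ratio of heart over mesoderm was 0.40 for the protein rows, 0.74 for the rRNA rows and 0.65 for the tRNA rows, against 0.01 for all expressed genes. Total counts shifted all genes to -0.31 and the protein rows to 0.08. The largest log2 ratio of a protein row was 1.10 for ND3 and the smallest 0.20 for CYTB. With total counts these were 0.78 and -0.12, and COX1 and COX3 also changed sign, to -0.10 and -0.04. All rows summed gave a geometric mean share of 14.3% in the heart and 12.4% in the mesoderm, 1.15-fold, or 1.44-fold after TMM scaling. With globin counts taken out of the library totals, but the TMM factors kept from the full totals, the ratio was 1.47. The factors were not refitted, so this value does not show the effect of removing globins on a TMM-scaled ratio. Heart muscle genes, at the levels given above, moved with the same contrast, and their part in these ratios was not tested. Stage and tissue differ together here and cannot be told apart.

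Nuclear genes of the respiratory chain, including complex II, to which the mitochondrial genome contributes no subunit, mostly separated. Of 41 such genes matched by name, 36 were higher in all 4 heart libraries than in any mesoderm library after TMM scaling, against 25.6% of expressed genes, and 27 with total counts, against 15.8%. After TMM scaling they were 19 of 23 for complex I, 3 of 3 for complex II, 1 of 1 for complex III, 7 of 7 for complex IV and 6 of 7 for complex V. The matched genes are only part of the lists, at 23 of 38 names for complex I, 3 of 4 for complex II and 1 of 9 for complex III. For complexes IV and V the matched genes were 7 of 16 and 7 of 32. Their summed level was 13202 to 15864 CPM in the heart and 9760.3 to 10320.2 in the mesoderm, with a median log2 ratio of 0.87. SDHB, the iron-sulphur subunit of complex II, was the one called gene, at 206 to 237 CPM in the heart and 92.1 to 102 in the mesoderm. Of the 41 genes 1 was thus called higher and 0 lower, against 5.62% and 2.53% of expressed genes. The ranges given here are CPM by total counts, which can touch where TMM-scaled values do not. The complex I subunits NDUFB9 and NDUFA5 were at 391 to 526 CPM in the heart and 375 to 417 in the mesoderm, and at 428 to 550.4 CPM in the heart and 302 to 349.6 in the mesoderm, respectively. UQCRFS1, the Rieske protein of complex III, was at 111 to 141 CPM in the heart and 77.8 to 103 in the mesoderm. CYCS, cytochrome c, was counted with the complex IV list, although it is not a subunit of complex IV. It was at 858 to 1323 CPM in the heart and 616 to 694 in the mesoderm. COX7C of complex IV was at 574 to 613 CPM in the heart and 409 to 591 in the mesoderm. ATP5G3 and ATP5J of ATP synthase were at 995 to 1451 CPM in the heart and 663 to 796 in the mesoderm, and at 712 to 901 CPM in the heart and 529.9 to 696 in the mesoderm.

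Set against these nuclear genes, the mitochondrial protein rows were lowest in the ventricle. The number of mitochondrial protein counts for each count of the 41 nuclear genes was 6.02 in the node, 7.72 in the atrium, 4.28 in the ventricle and 11.2 in the junction. The mesoderm had 7.74 in the pacemaker field and 10.9, 9.98 and 8.24 in the anterior, left and posterior mesoderm. The junction and the anterior mesoderm were highest. By total counts the ventricle held 15864 CPM of the nuclear genes, the most of any library, and the lowest share of mitochondrial protein counts. With TMM scaling the atrium held the most of the nuclear genes, 17911 against 17659, and the pacemaker field had the lowest protein share. The left atrium stood near the pacemaker field in this ratio although its nuclear sum was 15184 CPM against 9937.

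**Figure D4:**
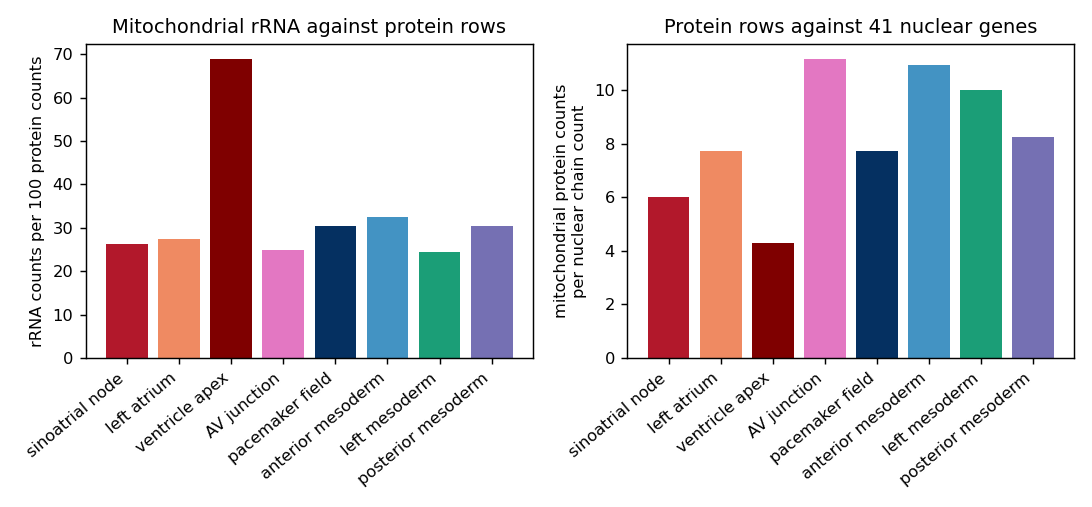
Left, mitochondrial rRNA counts per 100 protein counts (y axis) in the 8 libraries (x axis), and right, mitochondrial protein counts for each count of 41 nuclear respiratory chain genes (y axis) in the same libraries. The ventricle has 68.9 rRNA counts per 100 protein counts and only 4.28 mitochondrial protein counts per nuclear count.

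Of the matched nuclear genes that copy, process and translate mitochondrial RNA, none was called between heart and mesoderm. Over all expressed genes 5.62% were called higher in the heart and 2.53% lower. The lists are partial. Matched were 6 of 16 names for transcription and replication, 14 of 25 for RNA processing and 55 of 85 for ribosomal proteins. Other lists had 20 of 33 for translation factors and synthetases, 4 of 12 for biogenesis and 9 of 17 for the outer membrane list. The counts below are after TMM scaling, where 25.6% of expressed genes lay above and 25.6% below without overlap, and the printed CPM are by total counts. For transcription and replication, 1 of 6 matched genes lay above and 3 below the mesoderm without overlap, with a median log2 ratio of -0.26. POLRMT, the mitochondrial RNA polymerase, was at 32.96 to 36.5 CPM in the heart and 49.3 to 52.3 in the mesoderm, and SSBP1, which binds single-stranded mitochondrial DNA, at 128 to 201 CPM in the heart and 167 to 247 in the mesoderm. For RNA processing, stability and decay, 2 of 14 matched genes lay above and 2 below the mesoderm without overlap (median -0.21). TBRG4, of the FASTK family that stabilises mitochondrial messengers, was at 173 to 213 CPM in the heart and 176 to 210.4 in the mesoderm, and GRSF1, a protein of mitochondrial RNA granules, at 135 to 173 CPM in the heart and 212 to 230.2 in the mesoderm. For mitochondrial ribosomal proteins, 12 of 55 matched genes lay above and 0 below the mesoderm without overlap (median 0.23), with MRPS21 at 229 to 274 CPM in the heart and 292 to 381 in the mesoderm, and MRPL20 at 196 to 273 CPM in the heart and 224 to 273 in the mesoderm. For translation factors and tRNA synthetases, 4 of 20 matched genes lay above and 5 below the mesoderm without overlap (median 0.09), with MTIF2, an initiation factor, at 46.3 to 106 CPM in the heart and 51.96 to 75.8 in the mesoderm, and IARS2, which charges the isoleucine tRNA, at 48.3 to 52.3 CPM in the heart and 55.96 to 76.04 in the mesoderm. For regulators of mitochondrial biogenesis, 0 of 4 matched genes lay above and 1 below the mesoderm without overlap, with a median log2 ratio of -0.87 and only 2 of the 4 expressed. Their sum was 46.3 to 76.3 CPM in the heart and 141 to 168 in the mesoderm. PPRC1, a coactivator of the PGC-1 family, was at 29.6 to 55.9 CPM in the heart and 112 to 129 in the mesoderm, and MYC at 14.5 to 20.9 CPM in the heart and 23.04 to 36.5 in the mesoderm. For outer membrane, ADP/ATP carrier and matrix genes, 2 of 9 matched genes lay above and 2 below the mesoderm without overlap (median 0.07). SLC25A6, an ADP/ATP carrier, was at 1225 to 1372 CPM in the heart and 1144 to 1320.2 in the mesoderm. HSPD1, the matrix chaperonin, was at 439.5 to 593 CPM in the heart and 922 to 1025 in the mesoderm. The CPM of MRPS21, GRSF1, IARS2 and MYC lay lower in all heart libraries than in any mesoderm library, but overlapped after TMM scaling. Among ribosomal proteins the share above was near that of all genes, and none lay below.

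**Figure D5:**
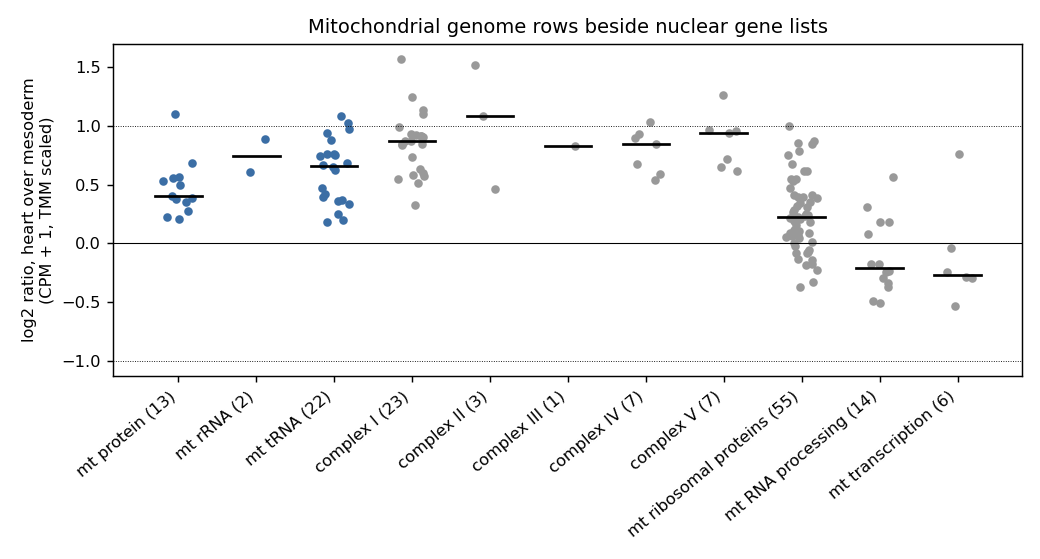
Log2 ratio of heart over mesoderm (y axis, CPM + 1 after TMM scaling, mean of 4 libraries each) for single mitochondrial rows (blue) and nuclear genes (grey) by list (x axis, number of genes in brackets); the bar is the median and dotted lines mark 2-fold. Protein rows have a median of 0.40 and the nuclear lists of the complexes lie higher, at 0.83 to 1.08.

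Within the heart, the region that forms the pacemaker was set against the working chambers. No mitochondrial row was called in the node against both chambers, where 3.11% of expressed genes were called higher and 1.46% lower (304 and 143, or 414 and 95 with total counts). Of the 37 rows 16 lay below both chambers, against 35.5% of expressed genes, and 1, tRNA row 6, above, against 32.1%. The 16 included both rRNA rows, with log2 ratios of -0.97 (long) and -0.88 (short), and ND3 and ND4L at -0.64 and -0.52, but not the other 11 protein rows, in which the node stood between the atrium and the ventricle. The median of the protein rows was -0.24. With total counts 10 rows lay below both chambers and 4 above, against 19.1% and 50.2% of expressed genes. Leaving out the atrium, the long rRNA row and tRNA row 2 were called lower in the node than in the ventricle, as were 4.66% of expressed genes. Leaving out the ventricle, ND3 and tRNA row 15 were called lower than in the atrium, as were 2.97%.

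Protein rows took a larger share of counts in the left atrium than in the ventricle. The rRNA rows took a larger share in the ventricle than in the atrium. All 13 protein rows were higher in the left atrium than in the ventricle, with TMM-scaled log2 ratios of 0.73 to 1.04. By total counts their sum was 1.73-fold (95% interval 1.72 to 1.73) that of the ventricle, and after TMM scaling 1.83-fold. Both rRNA rows were higher in the ventricle. There their sum was 1.45-fold (95% interval 1.44 to 1.45) that of the atrium by total counts and 1.37-fold after TMM scaling. In this pair of libraries a gene is simply higher or lower, and 46.9% of expressed genes were higher in the atrium and 53.1% lower. The rule called 4 rows higher in the atrium, against 4.3% of expressed genes higher and 3.09% lower. They were CYTB, at 6812 and 3516 CPM by total counts, and tRNA rows 4, 5 and 11. With TMM-scaled log2 ratios of 1.04, 1.05, 1.13 and 1.06 they were just past 2-fold. With total counts only tRNA row 5 was called, as were 3.29% of expressed genes. The other 12 protein rows were between 0.73 and 0.997. Globins, markers of blood, summed to 39857 CPM (atrium) and 20030.0 CPM (ventricle), and their part in the difference was not tested.

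The junction had the largest mitochondrial share of counts. After TMM scaling it lay above the node, the atrium and the ventricle for 30 of 37 rows, against 21.7% of expressed genes. It lay below all 3 for 1, tRNA row 6, against 24.7%. Of the protein rows 12 of 13 were above, all but ND3, which was slightly higher in the atrium after TMM scaling and slightly lower with total counts. The protein sum was 1.26-fold (95% interval 1.25 to 1.26) that of the atrium, 1.72-fold (95% interval 1.71 to 1.72) that of the node and 2.17-fold (95% interval 2.16 to 2.18) that of the ventricle. No row was called, against 0.827% of expressed genes higher and 0.514% lower. Without the atrium 9 rows were called higher, namely ND1, COX1, COX3 and tRNA rows 3, 4, 5, 7, 12 and 13, as were 1.45% of expressed genes. The junction was also the heart library with the fewest globin counts, 15008 CPM, and the fewest heart muscle marker counts, 22421 CPM. The part of cell mixture in its mitochondrial share was not tested. It is the only heart library with a stated stage, so region and stage may differ together.

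Within the stage 8 mesoderm, the pacemaker field had the smallest mitochondrial share of counts. It lay below the anterior, left and posterior mesoderm for 35 of 37 rows and for all 13 protein rows, against 18.6% of expressed genes, and above them for none, against 20.3%. The exceptions were the long rRNA row and tRNA row 3. With total counts the numbers were also 35 and 13, against 12.5% of expressed genes, and the exceptions were tRNA rows 2 and 3. The median log2 ratio of the protein rows was -0.40, that of all expressed genes 0.01. ND3 had the lowest of the protein rows, -0.82. No row was called, where 0.054% of expressed genes were called higher and 0% lower, and without the posterior mesoderm tRNA row 8 was called lower, as were 0.0437% of expressed genes. These rows come from 1 genome and 1 library, so 35 rows in the same direction are not 35 independent differences.

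The anterior mesoderm had the largest share among the mesoderm libraries. By total counts its protein sum was 1.29-fold (95% interval 1.29 to 1.30) that of the posterior mesoderm and 1.43-fold (95% interval 1.43 to 1.43) that of the pacemaker field. After TMM scaling these were 1.33-fold and 1.55-fold. Against the posterior mesoderm 35 of 37 rows were higher, where 50.1% of expressed genes were, and ND4L and tRNA row 1 were lower, where 49.9% were; with total counts 34 were higher, against 43.7%. The median log2 ratio of the protein rows was 0.39, and no row was called, against 0.905% of expressed genes higher and 1.04% lower. The left mesoderm lay between the anterior and posterior libraries in its protein sum. Against both, 17 rows were lower, where 38.3% of expressed genes were, and tRNA rows 8 and 10 were higher, where 33.7% were. The lower rows were both rRNA rows, COX2, ND3, ND4L and ND6 among the protein rows, and 11 tRNA rows. With total counts 6 rows were lower and 4 higher, against 18.7% and 55.5% of expressed genes. The rule called none of the 37, against 0.434% of expressed genes higher and 0.0217% lower. Without the anterior mesoderm tRNA row 8 was called higher, as were 1.49% of expressed genes, and without the posterior mesoderm tRNA row 6 was called lower, as were 0.529%. The left mesoderm had the fewest rRNA counts per 100 protein counts, 24.4, and the anterior mesoderm the most of this class, 32.6.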

How the data were processed

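Polyadenylated RNA from 8 pooled tissues was sequenced as paired ends of 36 bases, per the labels' protocols, and Bowtie and TopHat are named in the submitters' processing notes. Genome build, annotation, counting program, use of strand and treatment of reads that map to several places are not given in the sources used here. Per the file headers, the deposited columns hold read counts for 7 libraries, matched to libraries by the header's name, and CPM, the authors' scaling to the library total, for all 8. For the posterior mesoderm, counts were worked back from the CPM, dividing by the value of 1 read, and 100% came out whole within 0.01. Every column of values per library was matched to a library.

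Starts in the tables count from 0, so row lengths are end minus start and printed positions count from 1. Levels are CPM of the library's own total unless TMM scaling is named. TMM and size factors came from edgeR 4.0.16 and DESeq2 1.42.0 in R 4.3.3, the rest from Python 3.11.15 with scipy 1.17.1. In total 7 comparisons were made by the call rule in the text. On simulated data for atrium against ventricle the rule called 100% of 4-fold and 0% of 1.5-fold changes. A 2-fold threshold largely fixes this outcome in advance, and it says nothing of the spread between replicates. Genes with 5 CPM in at least 1 library of a comparison counted as expressed. List genes were matched by symbol or checked entry name where at least 2 neighbouring genes were shared with RefSeq. All protein and rRNA rows are named, tRNA rows where they are highest, lowest, called or singled out by a comparison after their values were seen, and of each nuclear list the called genes, largest ratio first, or otherwise the 2 highest expressed. Members and lists were chosen with earlier results of these data known. Scaling, thresholds, added CPM, denominators, row lengths and single libraries were varied. No sequences were used here.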

Additional observations from a re-analysis of the deposited data

How the results depend on the processing

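The ratio of summed mitochondrial shares, heart over mesoderm, was 1.44 with TMM, 1.15 with total counts, 1.45 with DESeq2 size factors, 1.44 with TMM over genes with 10 counts in every library, 1.47 without mitochondrial rows and 1.47 without globins in the denominator, and 1.37 for protein rows alone; without single libraries it was 1.27 to 1.60. For the changed denominators the TMM factors fitted on the full totals were kept and not refitted. The heart over mesoderm ratio of the ND3 share, 1.57, was 1.59 without ND6, 1.48 without overlapping rows and 1.46 to 1.69 without single libraries. The ventricle's rRNA ratio over the next library, 2.11, was 2.13 without ND6 and 2.11 to 2.26 without single libraries. Total counts moved the median log2 ratio of all expressed genes to 0.16 (node), -0.12 (atrium), -0.11 (junction) and 0.13 (left mesoderm). These ND3 and rRNA alternatives were chosen after seeing the data. ND6 stayed first per length under all 3 alternatives run.

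Of the 37 rows, the number called at 1.5-fold in place of 2-fold was 3 (node), 23 (atrium against ventricle), 2 (junction), 1 (left mesoderm) and 8 (anterior against posterior). For atrium against ventricle total counts gave 1 in place of 4, and for anterior against posterior adding 0.1 CPM gave 1 in place of 0. Without single libraries the rows called were 2 to 2 (node), 0 to 9 (junction), 0 to 1 (pacemaker field), 1 to 1 (left mesoderm) and 0 to 0 (heart against mesoderm). Over all genes, calls at 1.5-fold were 1586, 1058, 1982, 380, 11, 215 and 626 in place of 852, 447, 698, 133, 5, 42 and 176 for heart against mesoderm, node, atrium, junction, pacemaker field, left and anterior mesoderm. In the same order, the expressed genes numbered 10454, 9787, 9441, 9916, 9264, 9226 and 9056. With no minimum level the calls over all genes were 8 for the pacemaker field and 279 for anterior against posterior. Without single libraries they were 881 to 995 (heart against mesoderm), 722 to 1130 (node; highest without the atrium), 216 to 355 (junction; highest without the node, 232 without the atrium), 7 to 9 (pacemaker field; highest without the posterior mesoderm) and 125 to 171 (left mesoderm; highest without the anterior mesoderm). Fewer reference libraries make a call easier by construction; the cause of the other changes was not tested. No paired analysis was possible because each group has 1 library. Depth limits only the lowest tRNA rows, where 1 count was worth 0.0582 to 0.0975 CPM.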
